A study of Mus musculus with 6 samples.

Results

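The genes described here are the epithelial and neural cadherins, vimentin and 7 transcription factors that control the epithelial to mesenchymal transition (EMT), measured in mouse mammary tumours. They are Cdh1, Cdh2, Vim, Snai1, Snai2, Zeb1, Zeb2, Twist1, Prrx1 and Grhl2, taken as every probe set that the platform annotation assigns to exactly 1 of these symbols. All 10 genes were measured, by 20 probe sets, among 12393 genes with such probe sets, and 5 of the 10 had more than 1 probe set. The tumours came from adult female F1 mice of 2 outcrosses, AKR/J x PyMT (AKR F1, 3 samples) and DBA/2J x PyMT (DBA F1, 3 samples), and the labels name no treatment. Every sample carried the PyMT transgene, which encodes the middle T antigen of polyomavirus and gives rise to mammary tumours. The promoter of the transgene, the strain of its carrier parent and whether the samples of a cross came from separate animals are not given in the sources used here, so the p-values rest on the spread between these 3 and 3 samples, which may be technical. RNA of each sample was measured on 1 Affymetrix array, and the design asks which transcripts differ at baseline between the genotypes.

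In EMT, epithelial cells loosen their junctions and take on features of migratory mesenchymal cells. E-cadherin holds epithelial cells together, and N-cadherin and vimentin are found in mesenchymal cells. Transcription factors of the Snail, ZEB, Twist and Prrx families drive the change, and the grainyhead factor Grhl2 keeps the epithelial programme on and holds Zeb1 down. In mammary tumours vimentin is also made by fibroblasts, endothelium, macrophages and myoepithelial cells, so its level in whole tissue depends on the mixture of cells. In bulk tissue, fewer cells of a type and less RNA per cell cannot be told apart.

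Vim and Prrx1 were among the members with the widest differences between the crosses, so the stretch before an annotated start of each is shown. The Prrx1 start used lies inside the span annotated for that gene, chr1:163245119-163315145, so its window is not the stretch before the whole gene. The sequences are the 250 bases before a start in RefSeq, build GRCm38.p6, from a table that held 5 of the 10 genes. Capitals mark letters that match a searched motif.
Vim, chr2:13574061-13574310, plus strand: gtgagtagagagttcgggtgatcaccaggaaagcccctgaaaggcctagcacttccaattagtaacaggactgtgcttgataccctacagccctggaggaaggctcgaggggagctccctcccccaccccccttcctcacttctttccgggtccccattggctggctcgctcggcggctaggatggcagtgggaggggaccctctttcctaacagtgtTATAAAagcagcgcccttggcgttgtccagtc
Prrx1, chr1:163313651-163313900, minus strand: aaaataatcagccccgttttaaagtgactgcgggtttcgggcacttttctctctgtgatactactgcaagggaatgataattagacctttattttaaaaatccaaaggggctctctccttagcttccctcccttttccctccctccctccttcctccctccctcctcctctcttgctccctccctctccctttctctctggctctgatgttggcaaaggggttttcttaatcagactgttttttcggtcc

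Both strands were searched for CACCTG, the E-box form that Snail and ZEB factors bind, TGANTCA, the AP-1 site, GGGCGG, the GC box, and TATAAA, the TATA box. The Vim window held 1 TATA box, 32 bases before the start, and no other match, and the Prrx1 window held no match. Of 32851 windows of the same length, 17.2% held the E-box, 6.75% the AP-1 site, 32.7% the GC box and 12.4% the TATA box. GC content was 58.4% in the Vim window and 47.6% in the Prrx1 window. These letters describe the windows and carry no measurement of binding.

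The arrays stood at a common level, with medians of 7.55 to 7.57 in AKR and 7.52 to 7.55 in DBA F1 tumours on the log2 scale. Each difference is the AKR mean minus the DBA mean on the log2 scale and is negative where AKR F1 tumours are lower. The SD over all probe sets was 1.76 to 1.91 on AKR arrays, lowest on AKR replicate 2, and 1.98 to 2.02 on DBA arrays. The median difference over probe sets ran from 0.23 in brightness deciles 2 and 3 to -0.21 in the brightest, and member values are read beside the median of their own decile. The luminal epithelial markers Epcam (12.94 to 13.17 in AKR and 12.78 to 13.09 in DBA F1 tumours), Krt8 and Krt18 were bright on all 6 arrays. Of the 7 luminal markers measured, 4 lay lower in AKR F1 tumours. Muc1 lay lower (-1.09, limma adjusted p = 0.0827) and Cldn3 higher (1.0, limma adjusted p = 0.0857), each with no overlap between the crosses. The other luminal markers overlapped, with differences from -0.43 (Krt19) to 0.17 (Krt8). Muscle transcripts were high on DBA replicate 1, where the summed level of 6 skeletal muscle markers was 14.69, against 11.32 to 13.21 in AKR and 8.77 to 8.79 on the other DBA arrays.

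Vim, Cdh2 and Prrx1 lay lower in AKR than in DBA F1 tumours by -1.76 to -1.81 at their leading probe sets, whereas Cdh1 differed by -0.15. Grhl2 lay higher in AKR F1 tumours at every one of its 4 probe sets, by 0.39 to 0.60. Zeb1 differed by -0.57 at its brighter probe set, while Snai1, Snai2, Twist1 and Zeb2 differed by 0.26 or less in size. None of the 20 member probe sets passed an adjusted p of 0.05 by limma, against 22 of all 22626 (0.0972%). At an unadjusted p under 0.05 by limma there were 13 of the 20, which belong to 5 genes, against 26.1% of all probe sets. The crosses were fully separated, with no overlap of values, at 13 of the 20, against 39.2% of all probe sets. In 8 of these AKR lay below DBA (15.8% of all probe sets did) and in 5 AKR lay above DBA (23.4%). Probe sets of 1 gene read the same RNA, so these counts stand for few genes, and at the leading probe sets 5 of 10 did not overlap. The leading probe set of a gene is the one with the highest mean over the arrays.

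**Figure D1:**
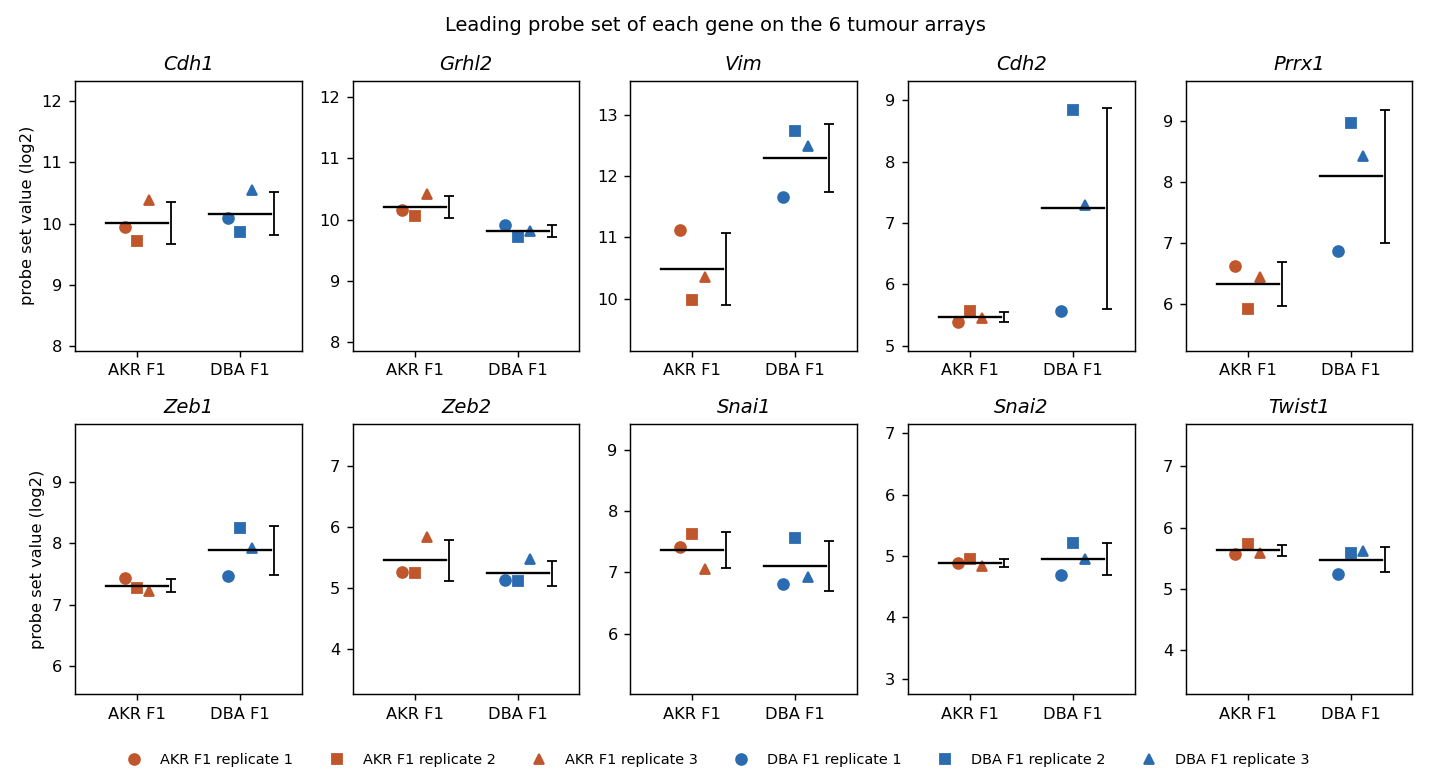
Log2 value of the leading probe set of each gene (y axis, each panel 4.4 log2 units high) on the 3 AKR F1 arrays (left) and the 3 DBA F1 arrays (right), with a line at the mean and a bar of 1 SD on either side. Vim, Cdh2 and Prrx1 stand lower in AKR F1 tumours, DBA replicate 1 stands nearest to the AKR arrays for all 3 of these genes, and the Cdh1 values of the crosses overlap.

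Cdh1, which encodes E-cadherin, had 1 probe set. It read 9.95, 9.71 and 10.38 in AKR F1 tumours, against 10.09, 9.86 and 10.54 in DBA F1 tumours. The values of the crosses overlapped, and the difference of -0.15 (SE 0.237, limma adjusted p = 0.669) had a 95% interval of -0.71 to 0.41. Its brightness decile had a median difference of -0.21. Within each cross replicate 2 was lowest and replicate 3 highest, over a range of 0.67 in AKR and 0.68 in DBA F1 tumours. The sign of this small difference depended on the setting, and after quantile normalization it was 0.08.

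Grhl2 encodes a transcription factor that keeps epithelial junction genes on. Its leading probe set (1427046_at) read 10.16, 10.05 and 10.41 in AKR F1 tumours, against 9.91, 9.71 and 9.82 in DBA F1 tumours. The crosses did not overlap here or at the other 3 Grhl2 probe sets. The leading probe set differed by 0.39 (SE 0.138, limma adjusted p = 0.155), where its decile had a median of -0.21. The Grhl2 probe set with the smallest p (1431878_at) read 6.75, 6.78 and 6.91 in AKR F1 tumours, against 6.27, 6.19 and 6.18 in DBA F1 tumours. That difference of 0.60 (SE 0.112, limma adjusted p = 0.0837) was 1.51-fold, and its decile had a median of 0.23. The remaining pair of Grhl2 probe sets both differed by 0.55, with limma adjusted p of 0.0924 and 0.111. After quantile normalization the 4 differences were 0.63, 0.66, 0.45 and 0.48, and the crosses still did not overlap at any of them. Within a cross the ranges were at most 0.36 in AKR, at the leading probe set, and 0.28 in DBA F1 tumours.

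Vim, the type III intermediate filament of mesenchymal cells, was bright on all arrays. Its leading probe set (1450641_at) read 11.12, 9.97 and 10.36 in AKR F1 tumours, against 11.66, 12.73 and 12.49 in DBA F1 tumours. The crosses did not overlap, and AKR replicate 1 and DBA replicate 1 were the nearest to each other. The difference of -1.81 (SE 0.372, 95% interval -2.69 to -0.93, limma adjusted p = 0.0913) was a 3.50-fold lower level in AKR F1 tumours. The other Vim probe sets differed by -1.78 and -2.38, with limma adjusted p of 0.121 and 0.119. The last of these (1456292_a_at) read 8.45, 6.29 and 8.41 in AKR F1 tumours, against 9.22, 10.35 and 10.70 in DBA F1 tumours. AKR replicate 2 was lowest at each Vim probe set.

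Cdh2 encodes N-cadherin, the cadherin of neural and mesenchymal cells. Its leading probe set (1449244_at) read 5.39, 5.56 and 5.45 in AKR F1 tumours, against 5.57, 8.84 and 7.30 in DBA F1 tumours. DBA replicate 1 lay at the level of the AKR arrays, and the other DBA arrays lay far above it. The other Cdh2 probe set (1418815_at), where the crosses overlapped because DBA replicate 1 lay among the AKR values, read 4.59, 4.76 and 4.78 in AKR F1 tumours, against 4.74, 8.21 and 6.87 in DBA F1 tumours. At the leading probe set the difference was -1.77 (SE 0.729, 95% interval -3.50 to -0.04, limma adjusted p = 0.187). The range within DBA F1 tumours was 9.61-fold, wider than that of 99.6% of all probe sets, while the AKR range of 1.13-fold was wider than that of 16.1%. The difference of Cdh2 was -0.97 when DBA replicate 2 was left out and -2.60 when DBA replicate 1 was left out. The low values of Cdh2 in AKR F1 tumours and on DBA replicate 1 can lie at background, since no detection calls were used here.

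Prrx1 encodes a paired-related homeobox factor of embryonic mesenchyme that can drive EMT. Its leading probe set (1425528_at) read 6.62, 5.93 and 6.44 in AKR F1 tumours, against 6.88, 8.96 and 8.43 in DBA F1 tumours. The crosses did not overlap, with DBA replicate 1 just above the AKR values. The difference of -1.76 (SE 0.513, limma adjusted p = 0.126) was a 3.39-fold lower level in AKR F1 tumours. The other Prrx1 probe sets differed by -1.77, -0.92 and -0.82, and the crosses overlapped at the last of these. DBA replicate 2 was the highest array at all 4. Without DBA replicate 1 the leading Prrx1 probe set passed (-2.37, limma adjusted p = 0.0216), and without DBA replicate 2 it was -1.33 (limma adjusted p = 0.196), with 1432129_a_at at -0.45 and 1425526_a_at at -0.23. The dimmer Cdh2 probe set also passed without DBA replicate 1 (-2.83, limma adjusted p = 0.0315). No other member probe set passed without DBA replicate 1, where 1.16% of all probe sets did.

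**Figure D2:**
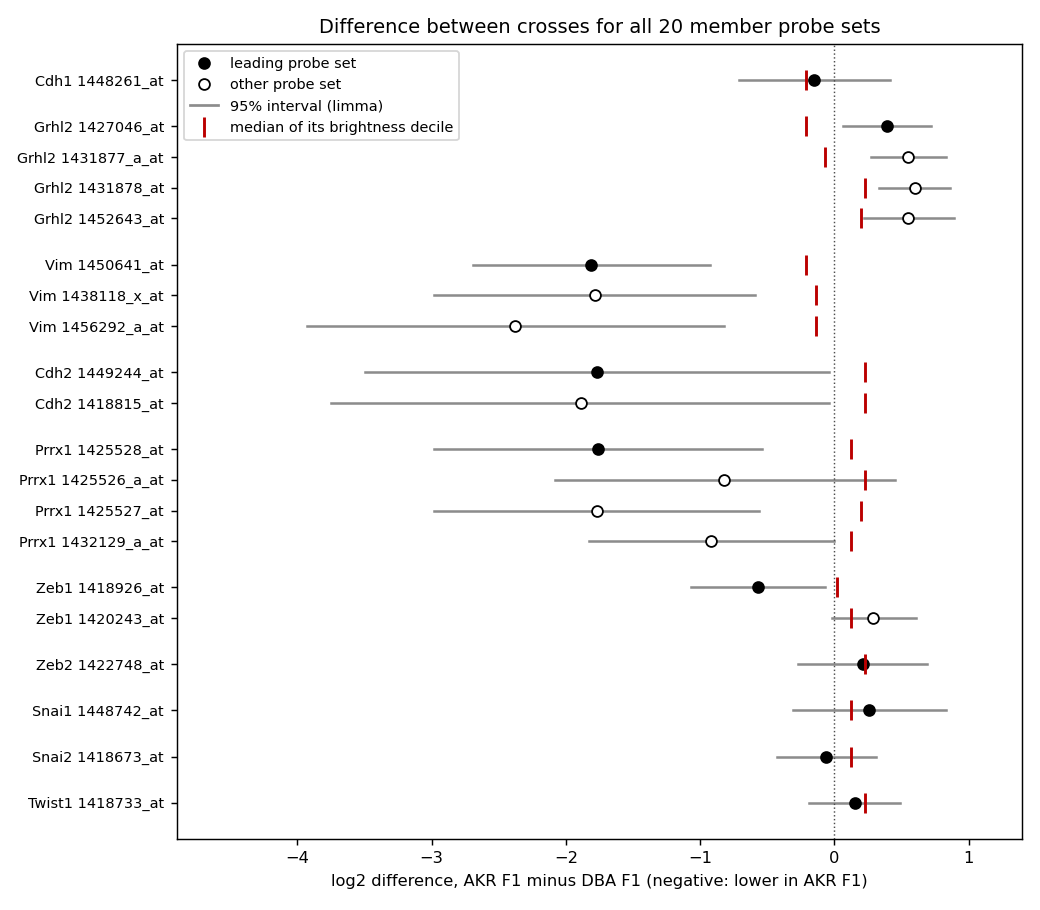
Log2 difference of AKR minus DBA F1 tumours (x axis) for the 20 member probe sets, with limma's 95% interval, filled points for leading probe sets and a red tick at the median difference of all probe sets in the same brightness decile. The 4 Grhl2 probe sets lie to the right of their ticks, the 9 of Vim, Cdh2 and Prrx1 lie to the left, and Zeb2 and Cdh1 lie close to theirs.

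The ZEB factors are zinc finger homeobox repressors of Cdh1. Zeb1 read 7.44, 7.27 and 7.23 at its leading probe set (1418926_at) in AKR F1 tumours, against 7.47, 8.26 and 7.93 in DBA F1 tumours. The crosses did not overlap, but DBA replicate 1 was barely above AKR replicate 1. The difference of -0.57 (SE 0.210) had a limma adjusted p of 0.164, and it was -0.14 as the mean of both Zeb1 probe sets. The dim Zeb1 probe set (1420243_at) lay the other way by 0.29, with values of 5.0 to 5.25 in AKR and 4.70 to 4.96 in DBA F1 tumours. Its decile had a median of 0.12. Only 8.43% of all probe sets were dimmer, so its values can lie at background. Zeb2 read 5.27, 5.25 and 5.84 in AKR F1 tumours, against 5.14, 5.11 and 5.48 in DBA F1 tumours, a difference of 0.21 in a decile with a median of 0.23.

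The Snail factors, zinc finger repressors that bind E-boxes, overlapped between the crosses. Snai1 read 7.42, 7.62 and 7.05 in AKR F1 tumours, against 6.81, 7.56 and 6.93 in DBA F1 tumours, and differed by 0.26 (95% interval -0.31 to 0.83). Snai2 lay between 4.83 and 4.95 in AKR and between 4.69 and 5.21 in DBA F1 tumours, and differed by -0.06 (95% interval -0.43 to 0.31). Twist1, a basic helix-loop-helix factor of the mesoderm, lay between 5.56 and 5.73 in AKR and between 5.24 and 5.61 in DBA F1 tumours, and differed by 0.15 (95% interval -0.19 to 0.49). No more than 14.5% of all probe sets were dimmer than Twist1, 12.1% than Zeb2 and 7.52% than Snai2, so these values can lie at background. For these 4 factors the intervals hold differences of up to 0.83 in size.

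Across the 10 leading probe sets, DBA replicate 2 was the highest array for 5 genes, Cdh2, Vim, Snai2, Zeb1 and Prrx1, and the lowest for Grhl2 and Zeb2. AKR replicate 2 was the lowest for Cdh1, Vim and Prrx1, and on this array 3 salivary gland markers had a summed log2 level of 14.03, against 7.68 and 9.43 on the other AKR arrays and 7.44 to 10.74 in DBA F1 tumours. DBA replicate 1 was the highest for none, and on it 4 adipocyte markers summed to 12.29, against 8.80 to 9.41 in AKR F1 tumours and 8.45 and 9.26 on the other DBA arrays. The part of these tissues in the members' values was not tested. Leaving out an array moved Vim between -2.13 (without DBA replicate 1) and -1.55 (without AKR replicate 2). Zeb1 lay between -0.78 (DBA replicate 1 left out) and -0.38 (DBA replicate 2 left out), and Grhl2 from 0.29 without AKR replicate 3 to 0.47 without AKR replicate 2. Without AKR replicate 2 and DBA replicate 1 together, 5 member probe sets passed, all 3 of Vim with 1 each of Cdh2 and Prrx1, and each lay lower in AKR F1 tumours, where 2.9% of all probe sets passed. With the planned array weights 14 passed, where 44.1% of all probe sets did. With array weights by limma's gene-by-gene method, chosen after seeing the data, 10 member probe sets passed, where 16.4% of all probe sets passed. They were 4 of Grhl2, 3 of Vim, 2 of Prrx1 and the dim one of Zeb1. This Zeb1 probe set lay higher in AKR F1 tumours, by 0.42, while the brighter one lay lower and did not pass (-0.51, limma adjusted p = 0.0745).

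**Figure D3:**
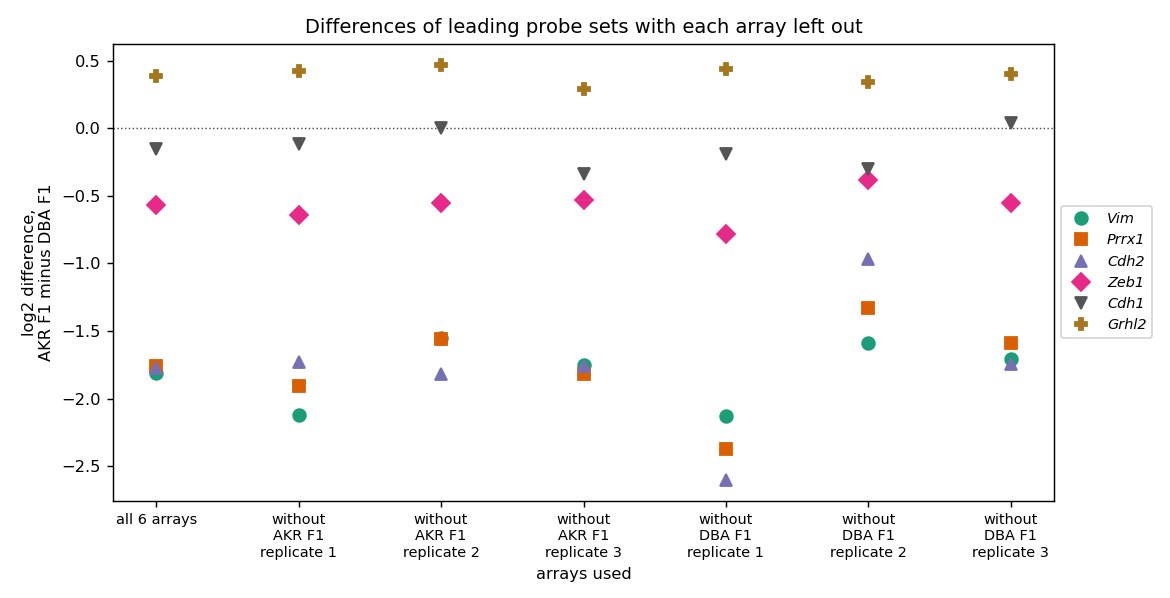
Log2 difference of AKR minus DBA F1 tumours (y axis) at the leading probe set of 6 genes with all 6 arrays and with each array left out (x axis). Vim, Prrx1 and Cdh2 stay below 0 throughout, with Cdh2 farthest out at -2.60 when DBA replicate 1 is left out, and Grhl2 stays above 0.

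Several cell types of a tumour make vimentin or Prrx1, so their markers were read on the same arrays. The 7 fibroblast markers were lowest on DBA replicate 2, with summed log2 levels of 13.26 to 14.43 in AKR F1 tumours, against 14.48, 11.94 and 13.98 in DBA F1 tumours. Of these 7 genes 4 lay lower in AKR F1 tumours, and none passed. Col1a2, a fibrillar collagen chain, read 12.71, 11.52 and 12.61 in AKR F1 tumours, against 12.55, 10.11 and 11.88 in DBA F1 tumours. The array with the lowest fibroblast markers was the highest for both Cdh2 probe sets, all 4 of Prrx1 and the leading one of Vim. The other Vim probe sets were highest on DBA replicate 3. Of the mesenchymal genes described below, Col5a2 (11.69), Mmp2 (10.67) and Fstl1 (10.89) were also highest on DBA replicate 2. Lox was lowest there, at 7.89, and the other measured genes of that list were highest on other arrays. Summed endothelial markers were 10.60 to 10.93 in AKR and 10.57 to 10.80 in DBA F1 tumours. Summed macrophage markers were 12.03 to 12.87 in AKR and 12.34 to 12.86 in DBA F1 tumours, and both sums overlapped between the crosses. Of 7 endothelial genes 4 lay lower in AKR F1 tumours, but Plvap (0.47) and Eng (0.49) lay higher without overlap. Of 7 macrophage genes 5 lay lower, with Cd68 (-0.47) lower without overlap. The other genes of both lists overlapped. The sum of 4 pericyte markers did not overlap (9.65 to 10.39 in AKR, against 10.60 to 10.90 in DBA F1 tumours). Of these genes Rgs5 differed by -1.06, Kcnj8 by -0.35, Pdgfrb by -0.20 and Cspg4 the other way by 0.25. The sum of 7 T and NK cell markers was higher in AKR F1 tumours, at 10.49 to 10.83, against 10.10 to 10.30 in DBA F1 tumours. Of these 7 genes 5 were dimmer than the median, where the deciles had medians of 0.12 to 0.23, and none passed. Zap70 was the brightest of the 7, at 9.43 to 9.70 in AKR and 8.90 to 9.23 in DBA F1 tumours. Cd4 (0.70), Zap70 (0.49), Cd3e (0.48) and Cd8b1 (0.32) did not overlap, while Cd8a (0.28), Ncr1 (0.08) and Cd3g (-0.06) did.

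The 9 basal and myoepithelial markers had summed log2 levels of 11.57 to 11.97 in AKR F1 tumours, against 11.70, 13.80 and 13.25 in DBA F1 tumours. Of these 9 genes 5 lay lower in AKR F1 tumours, and none passed. The contractile genes Acta2 (-2.06), Mylk (-1.97), Cnn1 (-1.48) and Myh11 (-1.23) lay lower in AKR F1 tumours, while Krt5 (0.99), Krt14 (0.71), Krt17 (0.51) and Oxtr (0.17) lay higher. Trp63, the remaining gene, differed by -0.21 and read 7.55 to 7.73 in AKR F1 tumours, against 6.75, 8.33 and 8.39 in DBA F1 tumours. Krt17, Oxtr, Myh11 and Cnn1 were dimmer than the median. On DBA replicates 2 and 3 Acta2 was the brightest of the 9, at 13.26 and 12.13. Mylk, the myosin light chain kinase, read 8.30, 8.51 and 8.45 in AKR F1 tumours, against 8.80, 11.27 and 11.11 in DBA F1 tumours. The basal keratin Krt14 read 9.76, 9.80 and 9.55 in AKR F1 tumours, against 9.33, 7.43 and 10.21 in DBA F1 tumours, and Krt5 was also lowest on DBA replicate 2. Of the 4 cartilage markers, whose summed level was also highest on DBA replicates 2 and 3, Col2a1 read 7.65 to 8.30 in AKR F1 tumours, against 7.41, 11.33 and 9.67 in DBA F1 tumours. Col9a1 differed by -0.78, Acan by -0.07 and Matn3 by 0.47, the last without overlap. The part of fibroblasts or of myoepithelial, pericyte or cartilage-like cells in the Cdh2, Vim and Prrx1 values was not tested. The difference between control probe sets at the 3′ and 5′ ends of Gapdh, a sign of RNA integrity, was 0.05 to 0.31 in AKR F1 tumours, against 1.20, 0.12 and 0.75 in DBA F1 tumours, lowest in that cross on DBA replicate 2.

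**Figure D4:**
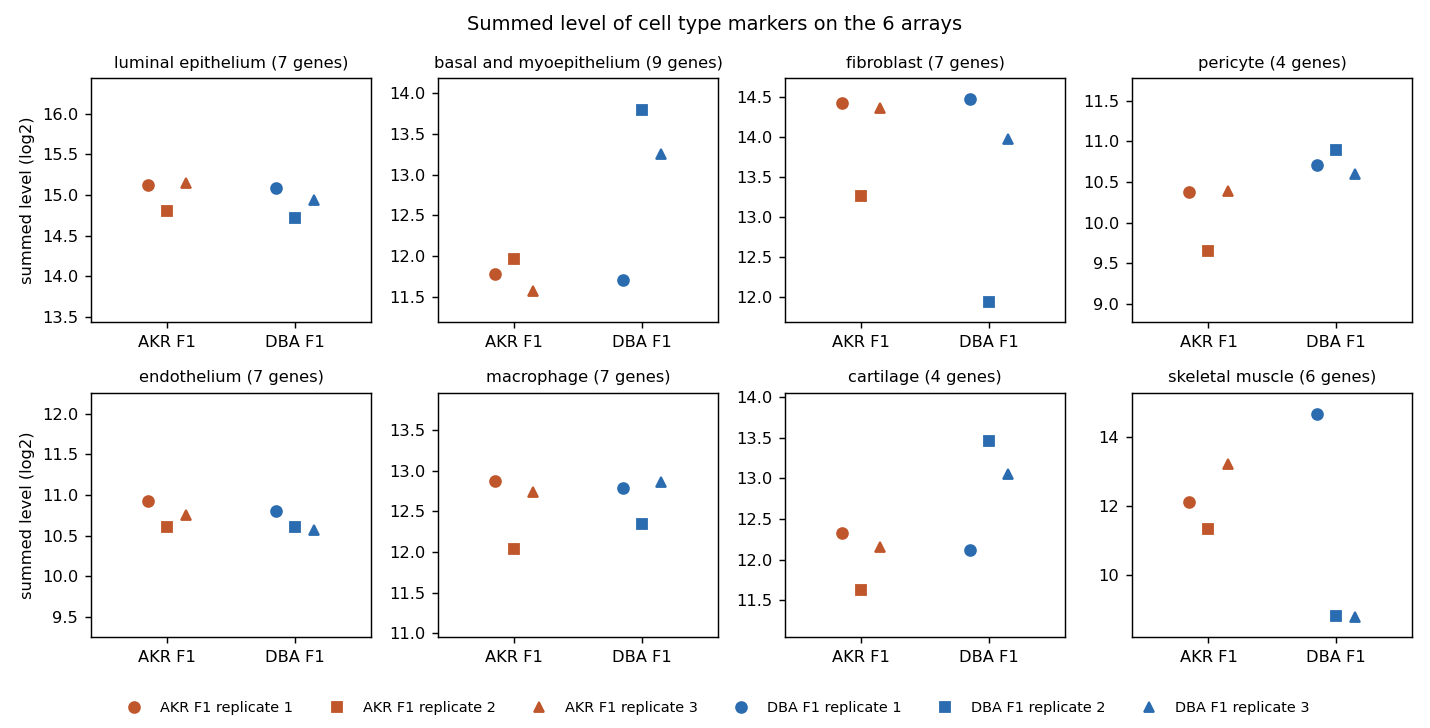
Summed level of the measured markers of 8 cell types (y axis, log2 of the sum of linear values, each panel with its own range) on the AKR F1 (left) and DBA F1 (right) arrays. DBA replicates 2 and 3 stand highest for basal and myoepithelial markers, at 13.80 and 13.25, and DBA replicate 2 stands lowest for fibroblast markers, at 11.94. The brightest genes weigh most in such a sum, and Acta2 alone read 13.26 and 12.13 on DBA replicates 2 and 3.

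The genes whose values moved most like those of a member over the 6 arrays were found by the root mean square distance between values centred on their own mean. Nearest to Vim were Irgm2, an interferon-inducible GTPase (0.169 log2 units), Plpp1, a phospholipid phosphatase (0.192), and Psmb8, an immunoproteasome subunit (0.214), among 7258 genes brighter than the median. Irgm2 read 7.38, 6.71 and 7.04 in AKR F1 tumours, against 8.32, 9.50 and 9.06 in DBA F1 tumours. Nearest to Cdh1 were Ercc5, a DNA repair nuclease (0.086), the kinase gene Pdpk1 (0.090) and the spindle gene Numa1 (0.094). The same measure for Cdh2, added after its values were seen, gave the cartilage proteoglycan gene Snorc (0.215), the brain creatine kinase gene Ckb (0.219) and the smooth muscle actin gene Acta2 (0.249). Ckb read 9.04, 9.26 and 8.63 in AKR F1 tumours, against 8.84, 12.27 and 11.05 in DBA F1 tumours. It was picked for its likeness to Cdh2, so the shared pair of high DBA tumours follows from that choice and is no separate evidence.

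Of 78 further genes of the pathway in 7 lists, 73 were measured and none passed over all probe sets by limma, with 16 (21.9%) at an unadjusted p under 0.05 by limma, against the 26.1% of all probe sets given above. Of 10 catenin and adherens junction genes, 5 lay higher and 5 lower in AKR F1 tumours (median 0.04, against 0.05 over all probe sets). Ctnnb1 (beta-catenin, -0.15), Ctnnd1 (p120 catenin, 0.24) and Ctnna1 (alpha-catenin, -0.36), which are partners of the cadherins, did not pass. Ctnna1 read 11.31 to 11.46 in AKR F1 tumours, against 11.62 to 11.92 in DBA F1 tumours, with no overlap. Of 12 other cadherin genes, all dimmer than the median, 11 lay higher in AKR F1 tumours (median 0.30, and 0.15 without AKR replicate 2), where 54.6% of all probe sets lay higher and the deciles below the median had medians of 0.12 to 0.23. P-cadherin Cdh3 differed by 0.43, the mesenchymal Cdh11 by 0.47 and the endothelial Cdh5 by -0.28. Cdh11 read 7.87, 6.33 and 8.13 in AKR F1 tumours, against 7.83, 5.19 and 7.90 in DBA F1 tumours, lowest on DBA replicate 2, and its difference was -0.42 without that array.

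Of 10 further EMT factors and co-repressors, 7 lay higher and 3 lower in AKR F1 tumours (median 0.26, and 0.16 without AKR replicate 2), with Snai3 at 0.25, Twist2 at 0.51 and Tcf3 at 0.27. Among these 10 genes 6 were dimmer than the median, where the deciles had medians of 0.12 to 0.23. Of 10 regulators of the epithelial state, 4 lay higher and 6 lower (median -0.09). This median had no stable direction, at 0.16 without either AKR replicate 2 or DBA replicate 1, -0.38 without DBA replicate 2 and 0.12 after quantile normalization. Among these Ovol1, a zinc finger factor that restrains EMT, read 6.07, 6.11 and 6.03 in AKR F1 tumours, against 5.81, 5.61 and 5.61 in DBA F1 tumours. Ovol2 had the same direction, with a difference of 0.38 and no overlap, while the grainyhead gene Grhl1 differed by -0.18. Neither Ovol1 (limma adjusted p = 0.127) nor Ovol2 (limma adjusted p = 0.139) passed. Both were dimmer than the median. The Ovol1 difference was 0.39, and after quantile normalization it was 0.22, with Ovol2 at 0.35.

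Of 15 epithelial genes that EMT lowers, 11 lay higher and 4 lower in AKR F1 tumours (median 0.14, and 0.02 without DBA replicate 2), with Epcam at 0.14, Krt8 at 0.17 and Krt18 at -0.06. Of 11 mesenchymal genes that EMT raises, 3 lay higher and 8 lower in AKR F1 tumours (median -0.57). Fibronectin Fn1 differed by -0.61 and the matrix protein gene Sparc by -0.57, with overlap between the crosses. Without AKR replicate 2 the median was -0.31 and Fn1 differed by -0.16. S100a4, a calcium-binding protein of motile cells, read 6.76, 6.60 and 6.24 in AKR F1 tumours, against 7.51, 6.86 and 8.30 in DBA F1 tumours, and its difference of -1.02 did not pass (limma adjusted p = 0.154). Of 5 other intermediate filament and partner genes, 4 lay higher in AKR F1 tumours (median 0.35, and 0.13 without DBA replicate 3). These included Nes (nestin, 0.37) and Des (desmin, 0.35), while Gfap lay at -0.38. Des read 8.41 to 8.95 in AKR F1 tumours, against 9.83, 7.65 and 7.46 in DBA F1 tumours, highest on DBA replicate 1 where the skeletal muscle markers were highest.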

How the data were processed

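Snap-frozen tumours gave total RNA by Trizol, which was labelled for Affymetrix arrays, per the labels' protocols. The deposited table holds log2 values of 22690 probe sets on 6 arrays, and the scale was read from the values. Both MAS5 and RMA appear in the submitters' processing notes, without a word on which of these made the values, so the background correction is unknown and dim differences can be compressed. Source names gave the crosses, and replicate numbers follow accession order.

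After 64 control probe sets were left out, 22626 were fitted with limma 3.58.1 in R 4.3.3 (lmFit, eBayes, two-sided, Benjamini-Hochberg over all of them, threshold 0.05). Errors are limma SEs. Precision is limited by 3 arrays per cross. Symbols came from the platform annotation, which gave 20380 probe sets a single symbol. Sequence variants of the strains under a probe and RNA level cannot be told apart. The test was run on simulated data first. Motifs were counted in Python 3.11.15, and figures drawn with matplotlib 3.10.9. The members and lists were chosen with earlier results of these data known. Named were all member probe sets, the first 3 measured genes of each list, any list gene that passed and the 3 nearest genes to Vim and Cdh1. Marker genes given by name, the list genes Col5a2, Mmp2, Fstl1 and Lox, and the genes nearest to Cdh2 were chosen after their values were seen.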

Additional observations from a re-analysis of the deposited data

How the results depend on the processing

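The numbers of calls, the differences of the leading member probe sets and named list genes, and the list medians were recomputed under 14 planned settings and 1 chosen after seeing the data. The count of separated crosses was recomputed under 2 of these, and the marker sums and nearest genes under none. At the leading probe sets or as 1 mean value per gene, Vim, Cdh2, Prrx1 and Zeb1 stayed lower in AKR F1 tumours in every setting that gave them a value. Grhl2 stayed higher in the same way. The dim Zeb1 probe set lay higher in AKR F1 tumours, and it passed in that direction with the planned array weights (0.44) and the gene-by-gene weights (0.42). After quantile normalization that probe set differed by 0.16 (limma adjusted p = 0.475), and the crosses overlapped. The number of member probe sets that passed limma, 0 with all arrays, was also 0 after quantile normalization, median centring, a trended and robust prior, among probe sets brighter than the median (a filter that removes Cdh2, Snai1, Snai2, Zeb2, Twist1 and Prrx1) and with 1 mean value per gene. Leaving out single arrays gave 0 to 2, and leaving out AKR replicate 2 and DBA replicate 1 together gave 5. An adjusted p of 0.10 gave 3, array weights 14 and gene-by-gene array weights 10. The planned array weights stopped before they converged and gave AKR replicate 1 a weight of 38.2, against 0.123 to 1.18 on the others. The count over all probe sets, 22 as reported, was 36 after quantile normalization, 102 among bright probe sets, 1 with 1 mean value per gene, 810 at an adjusted p of 0.10, 9969 with array weights, 3712 with gene-by-gene weights, 1 to 263 with single arrays left out and 657 without both arrays. The count of the other list genes, 0 as reported, was 1 at an adjusted p of 0.10, 29 and 12 with the array weights, 0 with any single array left out and 2 without both arrays. The count of member probe sets whose crosses do not overlap was 13 as reported, 12 after quantile normalization and 13 after median centring.

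Small differences took the other sign in some settings, and the cause was not tested. After quantile normalization Cdh1 was 0.08, Twist1 -0.02, Ctnnb1 0.06, Grhl1 0.02 and Krt18 0.14. With array weights Zeb2 was -0.03, Cdh5 0.16 and Fn1 0.10, and Cdh5 was 0.05 with gene-by-gene weights and 0.11 with 1 mean value per gene. Over the settings that leave out arrays, Cdh1 ran from -0.34 to 0.04, Snai1 from -0.01 to 0.49, Snai2 from -0.22 to 0.07, Twist1 from -0.02 to 0.21, Cdh11 from -0.42 to 1.45, Cdh5 from -0.49 to 0.21, Grhl1 from -0.50 to 0.02, Krt18 from -0.18 to 0.14 and Des from -0.07 to 1.24. Among list medians, those of the epithelial state regulators (-0.38 to 0.40 over all settings), the catenin genes (-0.10 to 0.13) and the further EMT factors (-0.11 among bright probe sets) took both signs, and that of the mesenchymal genes ran from -0.74 to -0.23. No paired analysis was possible because the labels give no replicate numbers that the crosses share. With 3 arrays per cross and no detection calls, small differences of dim probe sets could not be resolved.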
